A study of Homo sapiens with 13 samples.

Results

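Wide stretches of histone H3 monomethylated on lysine 4 (H3K4me1) that overlapped no peak of the other marks and factors listed here were described. They came from MDA-MB-231 cells, an established line of triple-negative breast cancer of the basal B type. These regions were selected on the peak lists themselves: they were the H3K4me1 regions at least 2000 bp wide that shared not even 1 bp with a peak of H3K27ac, H3K4me3, p300/CBP, RNA polymerase II (Pol II) or CTCF, and that touched no promoter window of 3 kb centred on the canonical transcription start site (TSS) of a protein-coding gene. They numbered 4615 of the 88319 H3K4me1 regions listed (5.23%) and are called wide unmarked regions here. The paper also used peaks of Fra-1, Fra-2 and open chromatin (ATAC-seq), which did not enter this selection. Unmarked therefore refers only to the lists named, and the regions may be bound by Fra-1 or Fra-2. All cells were unmodified and untreated and were grown in standard medium, so the 6 antibodies, and not a treatment, distinguished the samples. Chromatin immunoprecipitation and sequencing (ChIP-seq) was carried out with 2 replicate libraries for H3K4me1, H3K27ac, H3K4me3, Pol II and CTCF, which the authors merged before calling peaks, and with 1 library, from pooled immunoprecipitations, for p300/CBP. The Input libraries were not analysed here. Because each list holds positions without a height or a count, the depth of each sample is unknown, no test over replicates could be made, and every interval below is a 95% interval for counting error only. Regions are not replicates of a condition.

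H3K4me1 is deposited mainly by the KMT2C and KMT2D methyltransferases and marks enhancers, the distal elements through which transcription factors act on promoters. Enhancers that carry H3K4me1 together with H3K27ac, which the co-activators p300 and CBP deposit, are usually called active, and those with H3K4me1 alone are often called primed or poised. H3K4me3 marks active promoters, Pol II transcribes from both promoters and many active enhancers, and CTCF binds insulators and the anchors of chromatin loops. In this cell line the AP-1 family (Fos and Jun proteins such as Fra-1) and the TEAD factors, through which YAP and TAZ act, are among the best known regulators of enhancers.

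To show what DNA lies in these regions, 300-base windows of the hg19 plus strand are printed for 3 of them, in lower case with the word each was chosen for in capitals, on whichever strand it matched. The words were the AP-1 word TGANTCA and the TEAD word GGAATG, and a match describes letters and is not a binding site. The first window, in an intron of DIP2C, held the most AP-1 words: 5 copies of TGACTCA, each beginning 61 bases after the one before, which is the layout of a tandem repeat. The second, in an intron of the potassium channel gene KCNQ1, held the most TEAD words (5) beside 1 AP-1 word that is not marked, and its region touches the 3-kb window of a non-canonical TSS. The third, chosen after its values were seen, lies in the widest such region of TEAD1 and held 2 AP-1 words and 1 TEAD word.
DIP2C, chr10:656645-656944: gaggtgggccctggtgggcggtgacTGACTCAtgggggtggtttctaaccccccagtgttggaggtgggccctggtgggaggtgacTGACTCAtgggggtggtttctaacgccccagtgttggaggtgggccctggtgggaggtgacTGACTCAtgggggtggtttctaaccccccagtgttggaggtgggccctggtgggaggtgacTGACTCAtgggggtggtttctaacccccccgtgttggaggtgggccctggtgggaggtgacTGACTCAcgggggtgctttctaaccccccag
KCNQ1, chr11:2798676-2798975: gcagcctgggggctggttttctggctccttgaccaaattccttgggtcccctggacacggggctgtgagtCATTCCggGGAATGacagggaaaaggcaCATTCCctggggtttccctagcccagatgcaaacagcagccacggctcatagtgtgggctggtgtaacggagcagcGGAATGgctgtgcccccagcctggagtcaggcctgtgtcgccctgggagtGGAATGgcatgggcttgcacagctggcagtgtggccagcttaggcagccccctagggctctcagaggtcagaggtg
TEAD1, chr11:12721389-12721688: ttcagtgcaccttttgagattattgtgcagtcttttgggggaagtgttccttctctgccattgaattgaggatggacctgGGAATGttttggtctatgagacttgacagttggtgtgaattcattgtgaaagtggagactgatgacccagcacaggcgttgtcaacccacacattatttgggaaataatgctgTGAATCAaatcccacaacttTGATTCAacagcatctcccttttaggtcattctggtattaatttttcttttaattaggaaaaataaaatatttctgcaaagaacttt

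Wide H3K4me1 regions outside promoters mostly carried H3K27ac, and the wide unmarked regions were the minority left over. Of 26051 H3K4me1 regions at least 2000 bp wide, 21665 touched no promoter window, and 6084 of these had no H3K27ac peak. Taking away those with H3K4me3 left 5824. The p300/CBP list then lowered the number to 5570, the Pol II list to 5140 and the CTCF list to 4615. These 4615 made up 21.3% (20.8 to 21.9) of the wide regions outside promoters, against 71.9% that carried H3K27ac. H3K4me3 lay on 25.1% of those wide regions, p300/CBP on 21.8%, Pol II on 20.2% and CTCF on 15.8%. Of the regions that missed selection through a single list, 5660 carried H3K27ac alone. CTCF alone was next (525), followed by Pol II alone (359), p300/CBP alone (238) and H3K4me3 alone (184). All of these counts follow from the selection and are given as a description.

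The share of H3K4me1 regions outside promoters that carried none of the other listed marks or factors fell with every step in width. It was 84.2% below 500 bp, 60.8% from 1000 to 2000 bp, 34.4% from 2000 to 3000 bp, 19.2% from 3000 to 4000 bp and 9.13% from 4000 to 6000 bp. Only 76 of 3326 regions of 6000 bp or more (2.29%) were unmarked, while 95.3% of these had H3K27ac, against 6.28% of the regions below 500 bp. The overlap needed was 1 bp at every width, so that a wider region offered more bases to a peak, and the part of this in the fall was not tested.

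**Figure D1:**
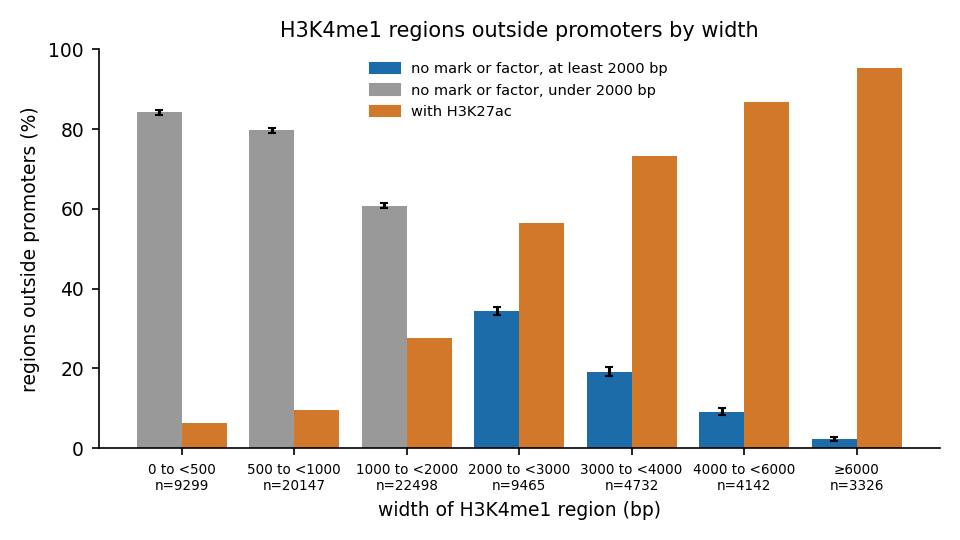
Share (%) of H3K4me1 regions outside promoter windows, by region width in bp, with the number of regions under each class. Regions without a peak of the other lists are blue from 2000 bp and grey below, and those with H3K27ac are orange. Error bars are 95% Wilson intervals for the unmarked share. The unmarked share falls from 84.2% to 2.29% as that with H3K27ac rises from 6.28% to 95.3%.

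Most wide unmarked regions were only just wide enough. Their median width was 2550 bp (quartiles 2200 and 3100 bp), 1362 reached 3000 bp and 195 reached 5000 bp. At the limit of selection, 279 regions of exactly 2000 bp were inside, and 293 otherwise eligible regions of 1950 bp were outside. Together they covered 13.1 Mb, or 7.79% of all bases under H3K4me1. For comparison, 37541 regions met the same conditions but were narrower than 2000 bp (median 800 bp), and 15581 regions outside promoters were at least 2000 bp wide and carried H3K27ac (median 3600 bp). These are called narrow unmarked and wide acetylated regions.

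Of the 10 widest unmarked regions, 8 lay in introns of protein-coding genes and 2 between genes. The widest, of 10650 bp, lay in PALM2AKAP2, a locus encoding paralemmin and A-kinase anchoring proteins, at chr9:112849201-112859851, 312 kb downstream of the canonical TSS and 15.8 kb from the nearest H3K27ac peak. AHDC1, which encodes an AT-hook DNA-binding protein, held one of 9650 bp, and BIN1, which encodes a membrane-bending protein, one of 9250 bp. A region of 9200 bp (chr17:21247201-21256401) lay between genes, 27.9 kb upstream of the inward-rectifier potassium channel gene KCNJ12, which has a near-identical copy, so that the placing of reads there is uncertain. ARHGEF18 held one of 9100 bp. TEAD1 held one of 8650 bp (chr11:12721301-12729951), 3.7 kb from the nearest H3K27ac peak and with 12 TEAD words and 5 AP-1 words over its length. ADNP, a homeobox gene, followed with 8550 bp. A region of 8450 bp lay between genes, 107 kb upstream of the cardiac transcription factor gene HAND1 and 92.2 kb from H3K27ac, and a second region in PALM2AKAP2 had the same width. The tenth, of 8400 bp, lay in HAPSTR1, a stress-response gene. These last 2 intronic regions touched the window of a non-canonical TSS. Across the 10 the nearest H3K27ac peak was 2.2 to 92.2 kb away.

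By the position of their centres, wide unmarked regions lay in the bodies of protein-coding genes more often than either comparison class. Of the 4615, 2968 (64.3%) lay in introns and 116 (2.51%) in exons of protein-coding genes, 454 (9.84%) in long non-coding RNA genes and 1077 (23.3%) between genes. The share in protein-coding genes was 66.8% (65.5 to 68.2), against 57.4% (56.9 to 57.9) of narrow unmarked regions and 58.2% (57.4 to 59.0) of wide acetylated regions. The bodies of protein-coding genes covered 45.8% of the resolved genome. The intervals did not overlap, but no test was made, since neighbouring regions share genes. Among wide unmarked regions, 372 (8.06%) touched a window of some other TSS of a protein-coding or long non-coding RNA gene, against 5.23% of narrow unmarked and 15.2% of wide acetylated regions.

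Within their genes, the wide unmarked regions leaned towards the 5′ part. Their centres lay at a median of 45.2 kb from the host gene's canonical TSS and 42.4% of the way along the gene, against 47.3% for narrow unmarked and 46.4% for wide acetylated regions. With each gene divided into 4 equal parts from its start to its end, these held 28.8%, 28.7%, 23.7% and 18.7% of them. The last part held 22.7% of the narrow unmarked and 22.9% of the wide acetylated regions.

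Although free of the other listed peaks, these regions tended to lie nearer to acetylated chromatin than narrow unmarked regions did. The nearest H3K27ac peak was at a median of 11.8 kb (quartiles 4.85 and 30.6 kb), against 17.1 kb for narrow unmarked regions, and 45.3% had one within 10 kb, against 36.6%. When peaks narrower than the median width in their list were disregarded for selection, the regions numbered 9189 and the median distance to any H3K27ac peak was 2.4 kb. That setting admits regions that overlap a narrow H3K27ac peak, which count as lying at no distance, so the shorter distance is partly built in. Peaks of the other lists were farther, at a median of 20.1 kb for CTCF, 25.4 kb for H3K4me3, 32.2 kb for Pol II and 92.0 kb for p300/CBP. For narrow unmarked regions p300/CBP was likewise the farthest (123 kb) and H3K27ac the nearest. The p300/CBP list was the shortest, with 13984 peaks, and the H3K27ac list held 41034, and the part of list length in these distances was not tested. Few regions had a peak within 1 kb: 83 for H3K27ac, 82 for H3K4me3, 49 for Pol II, 8 for p300/CBP and 142 for CTCF. The wider the region, the nearer H3K27ac was: the median went from 12.8 kb at 2000 to 2500 bp to 9.58 kb at 4000 bp or more, where the upper quartile also fell, from 35.0 to 22.1 kb. Distances to peaks run from edge to edge, so a wider region reaches farther on each side. The part of this in the fall, and in the difference from narrow unmarked regions, was not tested. The nearest canonical TSS was at a median of 42.6 kb, as for wide acetylated regions (42.6 kb).

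Wide unmarked regions lay among other H3K4me1 regions, as the comparison classes did. The gap to the nearest other one was 3.6 kb at the median, against 5.6 kb for narrow unmarked and 3.1 kb for wide acetylated regions. That neighbour was itself unmarked in 55.1%, carried H3K27ac in 28.4% and lay at a promoter in 10.2%. For narrow unmarked regions these shares were close, at 54.2%, 27.2% and 10.8%. Of all 88319 H3K4me1 regions, 42156 were unmarked at any width. Both neighbours were unmarked for 1465 of the wide unmarked regions (31.7%), against 32.1% of narrow unmarked and 23.03% of wide acetylated regions. In the wide acetylated class the nearest neighbour carried H3K27ac more often, in 38.2%.

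Along the genome the regions were spread unevenly. Chromosomes 1 to 22 and X held 1.63 of them per Mb. Chromosome 17 held 3.68 (3.26 to 4.13) and chromosome 20 held 3.36 (2.91 to 3.86), whereas chromosome X held 0.357 (0.268 to 0.466) and chromosome 18 held 0.857 (0.660 to 1.09). As a share of all wide H3K4me1 regions outside promoters the chromosomes differed less, from 18.0% on chromosome 19 to 27.3% on X. The megabase with the most, 75 to 76 Mb on chromosome 17, held 17, with SEPTIN9 and SEC14L1 as their host genes. It was followed by 48 to 49 Mb on chromosome 20 with 16 and 12 to 13 Mb on chromosome 11 with 15, the latter in DKK3, MICAL2 and TEAD1.

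Some of them formed chains, here taken as runs less than 10 kb apart. Chains held 598 of the 4615 (13.0%): 230 chains had 2 regions, 32 had 3, 9 had 4 and 1 had 6. The longest ran through RREB1, which encodes a zinc-finger transcription factor of the Ras pathway, over 41.1 kb at chr6:7128001-7169101. Its 6 regions were 2750, 2250, 2550, 3950, 2150 and 4900 bp wide in order along the gene, 18.6 kb in all, and lay 19.8 to 60.9 kb downstream of the TSS. The chain was not free of other marks: between the second and the third region lay 1 H3K27ac peak of 1450 bp, which overlapped 2 narrow H3K4me1 regions and a peak each of H3K4me3 and Pol II. A narrow unmarked region of 1800 bp lay between the fourth and the fifth. The p300/CBP list had nothing in the gene or within 10 kb of it, and both CTCF peaks lay near the 3′ end. The AP-1 word occurred 3 times in the first of the 6 regions, not at all in the second and once in each of the others. Among chains of 4, those in AFAP1, PTPN14, TRIO, MPRIP and GAB3 had no H3K27ac peak within their span. That of MPRIP, whose product binds myosin phosphatase, was the densest, with 21.9 of 27.2 kb under the wide unmarked regions.

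**Figure D2:**
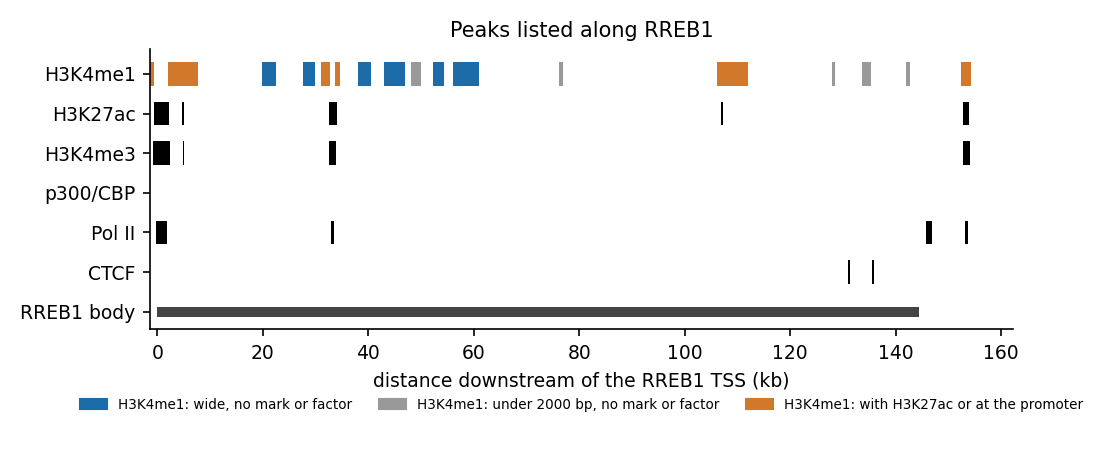
Peaks along RREB1, in kb downstream of its TSS; each box is 1 listed region, with H3K4me1 regions blue where wide and unmarked, grey where narrow and unmarked, and orange where at the promoter or with H3K27ac. The 6 blue regions lie 19.8 to 60.9 kb from the TSS, on both sides of 1 H3K27ac peak.

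In all, 2226 of 19894 protein-coding genes (11.2%) held the centre of at least 1 wide unmarked region. Most held a single one (1631 genes), 367 held 2 and 228 held 3 or more. Holding one went with gene length, from 0.402% of the shortest quartile of genes to 30.3% of the longest, and the median length was 115 kb for holders and 23.04 kb for the others.

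The 20 genes with the most, with ties settled by the bases covered, held between 6 and 12 each. PRKCA, which encodes protein kinase C alpha, held 12, covering 45.2 kb or 8.90% of the gene. LIMCH1, whose product activates non-muscle myosin, held 10, and SEPTIN9, which encodes a filament-forming GTPase, held 9. TEAD1 held 8 (32.4 kb, 11.99% of the gene). PTPN14, a tyrosine phosphatase that restrains YAP, also held 8, and they covered 15.6% of it. The receptor phosphatase gene PTPRM and the splicing regulator gene MBNL1 held 8 each. ASAP1 and IQSEC1, which act on Arf GTPases, held 7 each, as did FNDC3B, CCDC88C (whose product binds Dishevelled) and NAV2, a neuron navigator gene. Of the 11 genes with 6, the 8 named were PALM2AKAP2, MPRIP, SH3RF3, TRIO, ZMIZ1 (a transcriptional co-activator), RREB1, TRAPPC9 (vesicle trafficking) and SAMD4A (an RNA-binding repressor of translation). These genes were not poor in other H3K4me1: PRKCA also held 23 narrow unmarked and 12 wide acetylated regions, ASAP1 held 25 and 13, and NAV2 held 27 and 12. In CCDC88C, by contrast, 7 wide unmarked regions stood beside 5 narrow unmarked and 1 wide acetylated region, and in TRAPPC9 the 6 stood beside 13 and 2.

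**Figure D3:**
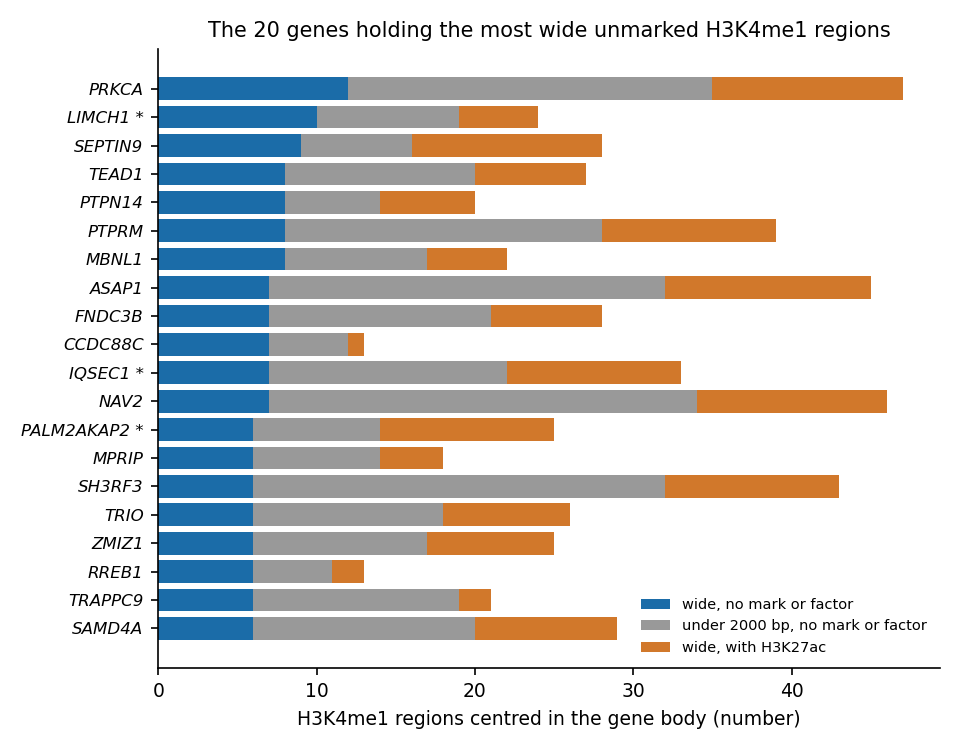
Number of H3K4me1 regions centred in each of the 20 genes that held the most wide unmarked regions, stacked as wide unmarked (blue), narrow unmarked (grey) and wide acetylated (orange); an asterisk marks genes without H3K27ac at the canonical promoter. Blue counts run from 12 in PRKCA to 6, and all 20 genes also held wide acetylated regions.

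The promoters of genes that held a wide unmarked region were mostly acetylated, a measure that did not enter the selection of regions in the gene body. H3K27ac lay in the canonical promoter window of 76.3% (74.5 to 78.0) of the 2226 genes, against 59.5% (58.8 to 60.3) of the 17668 genes without one. H3K4me3 showed the same difference (78.5% against 60.7%), as did Pol II (69.5% against 57.0%). The share with H3K27ac was 74.98% for genes with 1 region, 77.1% for genes with 2 and 84.6% (79.4 to 88.8) for genes with 3 or more. Their median lengths were 92.8, 161 and 227 kb in turn, and the part of length in this rise was not tested. The share was 67.1% for genes with narrow unmarked but no wide unmarked regions. For genes with wide acetylated but no wide unmarked regions it was 77.2%, which did not differ from the 76.3% beyond the intervals. Counting regions instead of genes, 79.0% of wide unmarked regions with a host lay in a gene with an acetylated promoter, against 70.7% of narrow unmarked and 81.3% of wide acetylated regions.

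Split by gene length, the difference in promoter acetylation exceeded the intervals in the 2 longer quartiles. In the longest quartile H3K27ac marked the promoters of 77.4% (75.2 to 79.4) of 1508 genes with a wide unmarked region and of 63.0% (61.3 to 64.5) of 3466 genes without. In the next quartile the shares were 78.1% (74.4 to 81.4) and 69.0% (67.6 to 70.4). In the second quartile they were 64.9% and 63.9%, and in the shortest, with 20 holders, 45.0% and 44.5%, and in both the intervals overlapped. Of the 20 genes named above, 17 had H3K27ac at the canonical promoter. LIMCH1 and IQSEC1 had no listed mark there and PALM2AKAP2 had H3K4me3 only, but all 3 had H3K27ac at another TSS.

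**Figure D4:**
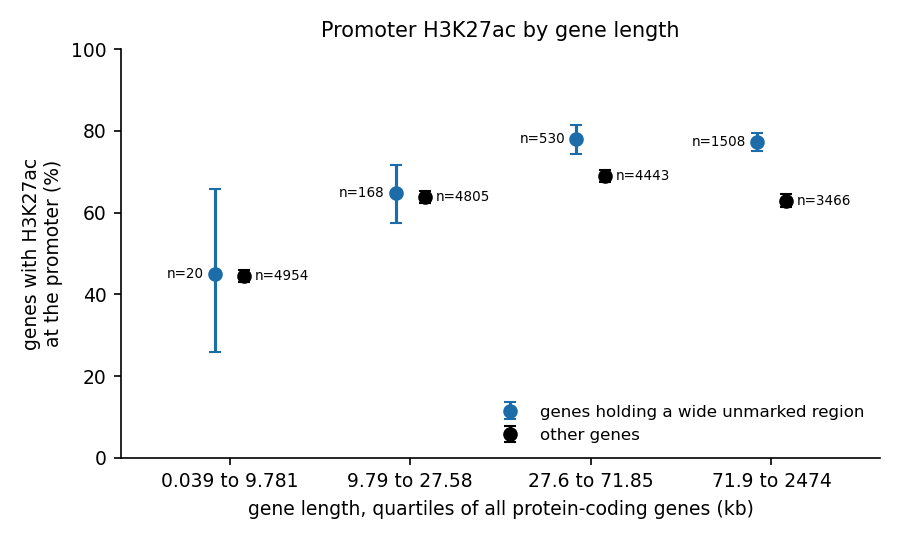
Share (%) of protein-coding genes with an H3K27ac peak in the canonical promoter window, by quartile of gene length in kb, for genes that held a wide unmarked region (blue) and other genes (black), with the number of genes beside each point; bars are 95% Wilson intervals. The points coincide in the 2 shorter quartiles and lie apart in the 2 longer ones (78.1% against 69.0% and 77.4% against 63.0%).

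Lists of genes were described by the number that held a wide unmarked region, beside 11.2% of all protein-coding genes. Among 26 transcription factors of AP-1 and its partners, 9 did (34.6%), with a median gene length of 24.7 kb. TEAD1 held 8, RUNX1 held 5 and RUNX2 held 4, FLI1 held 2, and ATF3, ELK3, ETS1, WWTR1 (which encodes TAZ) and YAP1 held 1 each. All these holders except ATF3 (55.4 kb) were 75.45 kb or longer, well above the list median. In the longest quartile of all protein-coding genes, from 71.9 kb, 30.3% held a wide unmarked region. None of the Fos and Jun genes was among the holders, but their lengths were not compared. Among all protein-coding genes up to 27.6 kb long, the 2 shorter quartiles, only 0.402% and 3.38% held one. Of 26 mesenchymal and basal genes, 6 held one (23.1%, median length 76.2 kb), namely CAV2 with 3, EGFR and TGFBR2 with 2 each, and LAMA3, MSN and TGFBI with 1, and all 6 had an acetylated promoter. The 2 regions of EGFR, the epidermal growth factor receptor gene, were 5250 and 6600 bp wide. Of 26 luminal mammary genes, 2 did (7.69%, median length 27.8 kb): ESR1, which encodes the estrogen receptor that triple-negative tumours lack, held 2 and the epithelial adhesion gene EPCAM held 1, and neither had H3K27ac at its canonical promoter, though EPCAM had it at another TSS. H3K27ac marked the promoters of 20 of the 26 mesenchymal and basal genes (76.9%) and of 14 of the 26 luminal genes (53.8%). Of all protein-coding genes 61.4% had it, the share beside which the promoter counts of every list stand.

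Axon guidance genes, with a median length of 322 kb, held a wide unmarked region in 15 of 30 (50%), with 4 in PLXNA4, a semaphorin receptor, and 3 in EFNA5, an ephrin. Synaptic adhesion and receptor genes were still longer (median 898 kb), but only 6 of 33 did (18.2%), with 3 in NRXN3, and 7 of the 33 had an acetylated promoter. Collagens had 10 of 44 (22.7%, median length 145 kb) and ADAM and ADAMTS proteases 8 of 44 (18.2%, 92.2 kb). Potassium channel genes had 17 of 95 (17.9%, 43.5 kb), of which KCNMA1 and KCNS3 held 3 each. Of 27 genes for enzymes that add or remove histone methylation or acetylation, and for their partners, 3 held a wide unmarked region (11.1%, median length 64.2 kb). These were EZH2, HDAC2 and KDM6A, although all 27 had acetylated promoters. Cadherins and protocadherins had 3 of 87 (3.45%, median length 115 kb), with 6 regions in CDH23, whose own promoter had no H3K27ac. Zinc finger genes had 10 of 505 (1.98%), while 82.2% of them had acetylated promoters at a median length of 26.2 kb. Olfactory receptor genes, which are short and silent in most tissues, had 0 of 404, which allows a share of up to 0.743% if 3 counts are taken as the limit of a count of 0, and of up to 0.942% by the Wilson interval. No list was tested.

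The sequence of the wide unmarked regions was close in base composition to that of the other classes. Their median GC content was 44.5% (44.2 to 44.8), against 45.2% in narrow unmarked and 44.3% (44.1 to 44.4) in wide acetylated regions. Windows of 1000 bp across the genome had a median of 39.9%, and the central 1000 bp of the wide unmarked regions 44.3%. CpG was depleted, at a median of 0.203 of the number that base composition gives, against 0.219 in wide acetylated regions. Only 4 of the 4615 reached a ratio of 0.6.

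Within the regions the AP-1 word was more frequent than around them. TGANTCA, searched on both strands, occurred 0.550 times per kb (0.537 to 0.562) over the whole regions, against 0.718 in narrow unmarked regions, 0.518 (0.513 to 0.523) in wide acetylated regions and 0.336 per kb of the genome. In the central 1000 bp the order of the wide classes was the opposite, at 0.585 per kb in wide unmarked and 0.668 in wide acetylated regions. The part of region width in the whole-region rates was not tested. The central 1000 bp held it in 44.8% (43.4 to 46.2) of the wide unmarked regions, against 51.7% of narrow unmarked regions, 48.1% (47.3 to 48.9) of wide acetylated regions and 27.7% of all 1000-bp windows of the genome. Over a whole region, 967 (21.0%) had no match, 1582 had 1, 1124 had 2, and 2 regions had 10. Tandem copies such as those printed from DIP2C count once per copy.

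Averaged over the regions, the AP-1 word was nearly level out to 1 kb from their centres, a span that lies inside every region. The placing of words within single regions was not measured. From the centre to 0.5 kb on either side the AP-1 word stood at 0.578 and 0.604 per kb, and from 0.5 to 1 kb it was still at 0.559 and 0.568. It then fell to 0.452 and 0.427 from 1 to 1.5 kb and reached 0.291 and 0.283 from 2 to 2.5 kb. Wide acetylated regions were higher at the centre (0.657 and 0.685) and sloped more steeply to 0.542 and 0.551 from 0.5 to 1 kb. Narrow unmarked regions, most of which end within 0.5 kb of the centre, had a sharp central peak. Width therefore moves with the shape, and its part was not tested. Compared with flanks 4 to 6 kb from the same centres, the central 1 kb on either side held 1.80 times as many AP-1 words per kb (1.74 to 1.87; 0.575 against 0.319), at a median GC content of 44.2% against 43.6%. The same ratio was 1.91 (1.87 to 1.95) in wide acetylated regions. It was 1.60 (1.58 to 1.62) in narrow unmarked regions, all of which are narrower than that centre. Other H3K4me1 regions lay in 32.4% of the flanks of wide unmarked regions.

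**Figure D5:**
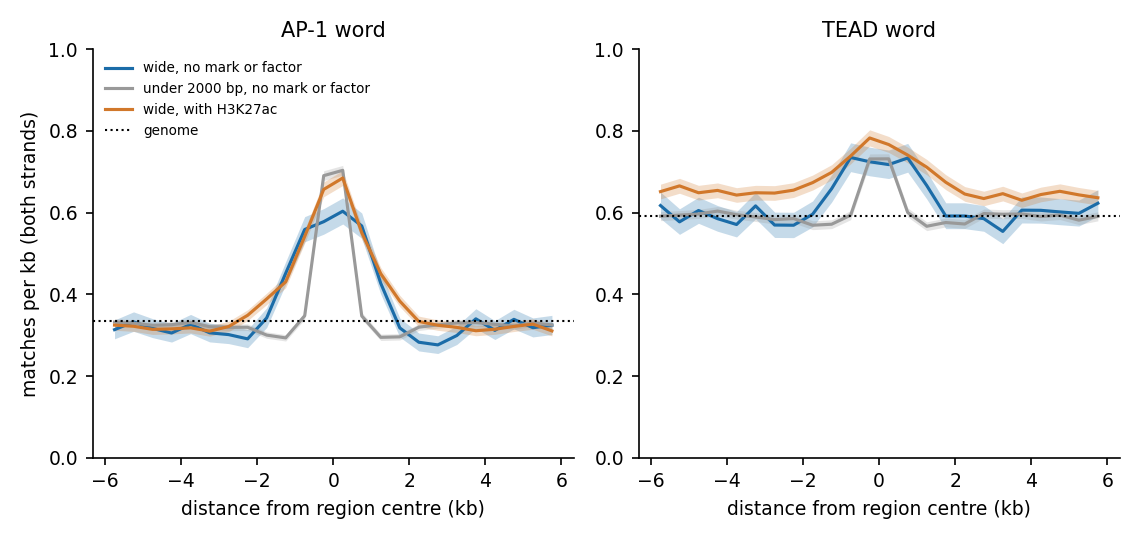
Matches per kb on both strands of the AP-1 word (left) and the TEAD word (right) in 0.5-kb bins, by distance in kb from the region centre, for wide unmarked (blue), narrow unmarked (grey) and wide acetylated (orange) regions; shading is the 95% Poisson interval and the dotted line the whole genome. The blue AP-1 line is nearly flat from -1 to 1 kb (0.559 to 0.604 per kb) and falls to 0.291 and 0.283 from 2 to 2.5 kb.

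The other words differed less between the regions and their own flanks. GGAATG (TEAD) was 1.21 times as frequent in the centre (1.17 to 1.25), TGTGGTT (RUNX) 1.21 times (1.14 to 1.27), CAGCTG (an E-box) 1.19 times (1.15 to 1.24) and TGTTTAC (FOX) 1.19 times (1.11 to 1.26). The GATA factor word AGATAA was at a ratio of 1.02 (0.991 to 1.05). For GGNGGCAG, part of the CTCF motif, the ratio was 1.005 (0.967 to 1.04), and for the ETS word CCGGAAG it was 0.914 (0.798 to 1.05). The cyclic AMP response element TGACGTCA was equally frequent in both, within wide limits (0.684 to 1.46). None of these 4 differed from the flanks beyond the intervals. Against the genome some words stood otherwise, and the flanks, too, had a higher median GC content (43.6%) than the genome (39.9%). The central 1000 bp held GGNGGCAG in 31.9% of wide unmarked regions against 24.0% of genome windows, CAGCTG in 40.7% against 29.1%, GGAATG in 49.2% against 42.7%, TGTGGTT in 21.7% against 18.2% and AGATAA in 47.5% against 53.7%. TGTTTAC was in 14.3% against 14.9%, CCGGAAG in 2.97% against 2.33%, and TGACGTCA in 0.368% against 0.356%. CCGGAAG was more frequent in wide acetylated regions (4.20%, 3.89 to 4.52) than in wide unmarked ones (2.52 to 3.50).

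Among the wide unmarked regions themselves, AP-1 words were more frequent outside protein-coding genes and farther from acetylated chromatin. The 1531 regions outside protein-coding genes held 0.612 per kb (0.589 to 0.636) and the 3084 inside held 0.520 (0.505 to 0.535). The 2526 regions 10 kb or more from H3K27ac held 0.593 per kb (0.575 to 0.611), and the 2089 nearer ones held 0.499 (0.482 to 0.518). TEAD words followed in the same direction, at 0.760 outside and 0.705 inside genes and at 0.750 far from and 0.691 near H3K27ac. Median GC content was 45.5% outside and 43.8% inside genes, and 44.1% far from and 44.9% near H3K27ac, so that it moved the same way as the words in the first split and the opposite way in the second.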

How the data were processed

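ChIP-seq in MDA-MB-231 cells gave 1 deposited list of peak positions per antibody, in bp of hg19. According to the paper's methods the authors aligned reads with BWA-backtrack (the labels name Bowtie2), processed them with PASHA, merged replicates and took runs above a threshold as peaks. The names of the lists give uniquely mapped reads and bins of 50 bp. For H3K4me1 the threshold was 30, with gaps of up to 1000 bp joined and runs of at least 250 bp kept, which sets the widths. The histone and p300/CBP signals were scaled and background-subtracted. Positions carry no value, so depth and agreement of replicates are unknown. No column of sample values was left unmapped.

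The tools were Python 3.11.15 with SciPy 1.17.1, NumPy 2.4.6 and matplotlib 3.10.9. Genes and TSSs came from GENCODE release 44 on GRCh37, whose chromosome lengths were compared with the lists, in place of the RefSeq genes of the study. A region belonged to the gene that holds its centre. Distances are gaps between edges, except those to a TSS, which start at the centre. Shares have 95% Wilson, rates exact Poisson and medians order-statistic intervals. Ratios of centre to flank have Poisson intervals on the log scale that take matches as independent, and were added after the first values were seen. Of 3528 comparisons on simulated data, 0 gave a wrong answer.

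The regions and the 13 gene lists were chosen with earlier results of these data known. One of the lists and some of the sequences are not reported here. Genes were named if they were among the 20 with the most regions, held or were nearest to 1 of the 10 widest, or were list genes with at least 3. Other list genes, chains of 4, dense megabases and DIP2C and KCNQ1 were named with their counts or sequences after values were seen. Alternatives changed the width minimum, overlap, TSS set, joining of regions and the definition of a host promoter.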

Additional observations from a re-analysis of the deposited data

How the results depend on the processing

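Across 8 summary values (number of regions, median width, share in protein-coding genes, distance to H3K27ac, number of host genes, share of these with an acetylated promoter, GC content and AP-1 words per kb), 79 alternative values were computed under 16 settings. Of these, 45 stayed within the intervals or within 1.5 times a count, and 34 did not. A width minimum of 1500 bp gave 8969 regions, a median width of 2000 bp, 63.7% in genes, 12.85 kb to H3K27ac, 3493 host genes, 73.9% with an acetylated promoter and 0.582 AP-1 words per kb. A minimum of 3000 bp gave 1362 regions, 3600 bp, 69.8%, 10.3 kb, 803 genes, 79.6% and 0.499 per kb. When a peak counted only if 50% of it lay in the region or it covered 50% of the region, the values were 68.6% in genes, 9.05 kb, 78.8%, a GC content of 44.2% and 0.516 per kb. Keeping only peaks of the other lists at least as wide as their median, in place of a stricter threshold, gave 9189 regions, 2650 bp, 63.7%, 2.4 kb, 3571 genes and 0.565 per kb. The 2.4 kb was measured to all H3K27ac peaks, including narrow ones that these regions may overlap. Joining H3K4me1 regions less than 2000 bp apart gave 2800 bp, 65.0%, 15.5 kb and 73.6%. Within quartiles of gene length the share of hosts with an acetylated promoter was 45.0%, 64.9% and 78.1% from the shortest, and the longest stayed within the interval. With H3K27ac at any TSS of a basic transcript, an alternative chosen after seeing the data, it was 79.7%. The central 1000 bp held 0.585 AP-1 words per kb. The cause of these moves was not tested, beyond the different regions each setting takes.

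Asking for no peak within 1000 bp, using all basic TSSs, dropping the promoter condition, leaving out regions near undetermined stretches and taking hosts by 1 bp of overlap moved none of the values they applied to. Without a value per peak a stricter threshold was not applied. No paired analysis was possible because each list comes from replicates merged by the authors, so leaving 1 replicate out was not possible either. Unknown depth limits every absence: a region without a listed peak had none above the threshold used, and lower signal was not listed.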
